A study of Mus musculus with 24 samples.

Results

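The effect of dermal fibroblast co-culture on untreated chondrocytes was compared between 72 h and 36 h, to find which genes responded to co-culture differently at the later time and which of the cultures moved. For each gene the difference between co-culture and normal culture at 72 h was taken, and the same difference at 36 h was subtracted from it. The 12 libraries without IL-1β entered, of 24 in the series, in 4 groups of 3: co-culture at 72 h, normal culture at 72 h, co-culture at 36 h and normal culture at 36 h. The other 12 libraries received the inflammatory cytokine IL-1β and are used near the end. Chondrocytes, the cells that build cartilage matrix, were primary cells of wild-type mice, isolated with collagenase II and sequenced as poly(A)-enriched RNA. In co-culture they sat in the lower chamber of a transwell with primary fibroblasts isolated from skin, and these fibroblasts were not sequenced; normal culture is the label of chondrocytes outside co-culture. The times count from the point at which the other cultures received IL-1β, a day after the cells attached. Chondrocytes were kept in DMEM/F12 with ITS and serum and fibroblasts in alpha-MEM with serum, per the labels' protocols, and the sources used here do not give the medium that the transwell plates held. They give no age or sex of the mice, and do not say whether replicates came from separate animals or cultures, so the p-values rest on the spread between libraries of a group, which may be technical.

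Cells placed in a shared medium exchange secreted factors: growth factors and cytokines of one population bind receptors on the other. Many such stimuli pass through the ERK kinase cascade to immediate early genes such as Fos and Egr1, which need no new protein to be transcribed and whose messages decay fast. Phosphatases and inhibitors that damp the cascade again are induced as well. Slower programmes, such as hypoxia targets, growth factor binding proteins and matrix genes, follow over hours to days. Cultured chondrocytes also drift with time, so a difference between co-culture and normal culture can shrink or grow because either of them moved.

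Values are FPKM, a fragment count scaled by gene length and by the number of mapped fragments in the library, and changes are differences of log2(FPKM + 1), on which the changes of weakly expressed genes are compressed. Genes were tested with limma, and adjusted p-values are Benjamini-Hochberg values over the 11879 genes with at least 1 FPKM in at least 3 of the 12 libraries. A gene is called below when its adjusted p is under 0.05. A negative difference means that co-culture stood lower relative to normal culture at 72 h than at 36 h, and a positive difference the reverse. Replicates correlated at 0.9969 to 0.998 across genes, and the spread within groups was alike, with a residual SD of 0.082 to 0.0931 on the log2 scale. Of the variance between libraries, 82.3% lay along a first principal component that separated the times and 7.07% along a second that separated the cultures. Library sums lay between 438242 and 455479 FPKM, and the number of reads behind them is unknown. Of 13 chondrocyte markers, Matn1 and Snorc were under 1 FPKM in all 12 libraries, and the summed level of the list was 909 to 976 FPKM in co-culture and 925 to 977 FPKM in normal culture at 72 h. At 36 h the sum was 628 to 654 FPKM in co-culture and 555 to 582 FPKM in normal culture. Col2a1 made up most of it, at 393 FPKM in co-culture and 302 FPKM in normal culture at 36 h. Of the 11 markers tested, 3 were higher and 1 lower in co-culture at 36 h, against 10.3% and 16.4% of all tested genes. Between the times 4 of the 11 markers rose and 5 fell in each culture.

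The co-culture effect depended on time in 2088 genes, 17.6% of those tested. It was more positive at 72 h in 1220 genes (10.3%) and more negative in 868 (7.31%), and 29 genes differed at least 2-fold (0.244%), 7 positive (0.0589%) and 22 negative (0.185%). That split rests on the scaling, since rescaling to TPM gave 915 positive and 994 negative genes and median-of-ratios scaling gave 997 of each. A fit over all 24 libraries, whose pooled spread includes the IL-1β groups, called 624 genes, 343 positive and 281 negative. Time itself changed far more genes: 8189 (68.9%) between 72 h and 36 h in co-culture and 7971 (67.1%) in normal culture, of which 6384 changed in the same direction in both cultures. In co-culture 4838 of these rose (40.7%) and 3351 fell (28.2%), in normal culture 4564 rose (38.4%) and 3407 fell (28.7%), and with median-of-ratios scaling 3996 rose and 4178 fell in co-culture, and 3847 rose and 3989 fell in normal culture.

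Most of the called genes moved in both cultures, as did most of all tested genes. Of the 2088 genes, 1074 (51.4%) changed in the same direction in both cultures and by different amounts, 469 (22.5%) changed in co-culture alone and 411 (19.7%) in normal culture alone. A further 132 genes (6.32%) moved in opposite directions. Over all 11879 tested genes, 8189 moved in co-culture and 7971 in normal culture. Of these, 6384 moved in both in the same direction and 132 in opposite directions, and the rest moved in a single culture. For 2 genes, Zfp566 and Pcdhgb5, named here after their values were seen, neither culture's change passed. Without co-culture replicate 3 at 72 h, the genes that changed in co-culture alone numbered 309. The larger change was in co-culture for 1092 genes and in normal culture for 996. By direction, co-culture made it in 705 of 1220 positive genes (57.8%) and normal culture in 481 of 868 negative genes (55.4%). Among called genes with a difference of at least 0.5, normal culture made the larger change in 97 of 113 positive genes (85.8%) and in 51 of 105 negative genes (48.6%).

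**Figure D1:**
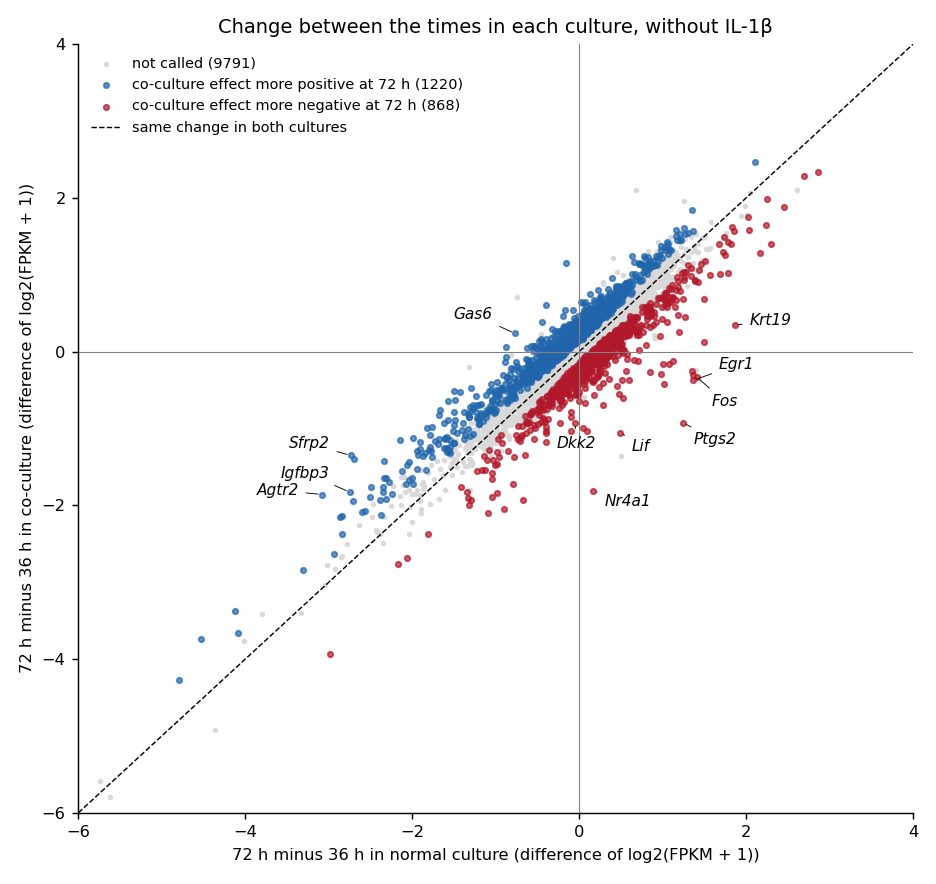
Change of each tested gene between 72 h and 36 h (difference of log2(FPKM + 1)) in co-culture on the vertical axis and in normal culture on the horizontal axis; each point is 1 gene, and the dashed line marks equal change in both cultures. The 1220 positive genes lie above the line and the 868 negative genes below it. Fos and Egr1 lie to the right and slightly below 0 for co-culture, and Sfrp2, Agtr2 and Igfbp3 lie at the lower left, above the line.

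The co-culture effect was smaller at 72 h in 1349 of the 2088 genes (64.6%), against 55.2% of all tested genes. Its median size in the called genes was 0.11 at 72 h and 0.18 at 36 h. Tested at each time, co-culture differed from normal culture in 1943 genes at 72 h (16.4%) and in 3173 genes at 36 h (26.7%). At 72 h the 1943 were 957 higher (8.06%) and 986 lower (8.30%). Rescaling to TPM gave 623 higher and 1649 lower at this time, and median-of-ratios scaling 1050 higher and 838 lower. At 36 h the 3173 were 1229 higher (10.3%) and 1944 lower (16.4%). There TPM gave 1115 higher and 2183 lower, and median-of-ratios scaling 1537 higher and 1455 lower. Without co-culture replicate 3 at 72 h the count at 72 h was 1081. At least 2-fold differences numbered 4 at 72 h (0.0337%), 3 higher (0.0253%) and 1 lower (0.00842%), and 34 at 36 h (0.286%), 26 higher (0.219%) and 8 lower (0.0673%). The 4 genes at 72 h, named after their values were seen where the naming rule did not hold them, were Egln3, Zbed5 and Car9, higher in co-culture, and Saa3, lower. Shared calls in the same direction numbered 574, which is 29.5% of the genes at 72 h and 18.1% of those at 36 h. Another 185 genes passed at both times in opposite directions.

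Immediate early genes gave the most negative differences. Of the 26 tested genes of this list 5 were higher and 4 lower in co-culture at 72 h, against 8.06% and 8.30% of all tested genes. At 36 h 23 were higher, against 10.3%. The difference was negative in 21 of the 26 and positive in none, against 7.31% negative among all tested genes. The median co-culture effect over the list was 0.03 at 72 h and 0.77 at 36 h, and the median difference was -0.72, where all tested genes had 0.03. The genes not called were Fosl1, Nr4a2, Klf10, Arc and Srf, with differences between -0.34 and -0.08, and Fosb, Egr4, Nr4a3 and Npas4 were too low to be tested; the names of these 9 were given after their values were seen. Leaving out any library gave 21 or 22 negative genes, and the fit over all 24 libraries gave 20.

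Fos, which encodes a subunit of the AP-1 transcription factor, was low in a single group. In co-culture it had 25.8, 25.8 and 26.2 FPKM at 72 h and 32.9, 33.0 and 33.0 FPKM at 36 h. In normal culture it had 25.1, 25.0 and 26.4 FPKM at 72 h and 8.33, 9.48 and 9.14 FPKM at 36 h. The 3 normal libraries at 36 h lay below the other 9, without overlap, and the co-culture libraries at 36 h lay above all others. The difference was -1.75 ± 0.06 (SE, adjusted p = 1.7e-10), made up of a change of -0.34 in co-culture and 1.41 in normal culture. At 72 h the cultures stood 0.02 apart (adjusted p = 0.734).

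Egr1, a zinc finger transcription factor, had the same shape. Its levels in co-culture were 149, 160.2 and 159 FPKM at 72 h and 207, 194 and 206 FPKM at 36 h. Normal culture had 156, 170.4 and 163 FPKM at 72 h and 63.4, 65.3 and 59.3 FPKM at 36 h. Co-culture changed by -0.37 and normal culture by 1.37, and the difference was -1.74 ± 0.06 (SE, adjusted p = 4.14e-10). Btg2, an antiproliferative target of p53 that is also an early response gene, had 37.5, 38.5 and 38.5 FPKM at 72 h and 47.3, 47.3 and 47.8 FPKM at 36 h in co-culture. In normal culture it had 39.4, 41.4 and 39.3 FPKM at 72 h and 14.6, 15.4 and 14.7 FPKM at 36 h. Its difference was -1.67 ± 0.05 (SE, adjusted p = 3.19e-11), with a change of -0.31 in co-culture and 1.36 in normal culture.

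Further genes of the list had negative differences of similar size. Ier2, a nuclear early response protein, averaged 92.4 ± 3.35 FPKM in co-culture and 69.5 ± 1.63 FPKM in normal culture at 72 h (SD, n = 3). At 36 h it averaged 104 ± 1.52 FPKM in co-culture and 34.2 ± 1.20 FPKM in normal culture, and its difference was -1.17 (adjusted p = 2.64e-09). Unlike Fos, whose cultures did not differ by the test at 72 h, Ier2 was higher in co-culture at that time, by 0.41 (adjusted p = 1.57e-05). Zfp36, whose product tristetraprolin degrades cytokine messages, had a difference of -1.11 (adjusted p = 3.13e-08) and did not pass between the cultures at 72 h (adjusted p = 0.955). Egr2, a relative of Egr1, changed by 0.13 in co-culture (adjusted p = 0.142) and rose by 1.49 in normal culture, for a difference of -1.36 (adjusted p = 2.19e-06).

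For other early genes co-culture moved more. Nr4a1, an orphan nuclear receptor, had 18.3, 20.4 and 20.7 FPKM at 72 h and 70.8, 71.4 and 74.7 FPKM at 36 h in co-culture. Normal culture had 23.2, 26.4 and 23.4 FPKM at 72 h and 19.9, 23.2 and 21.5 FPKM at 36 h. Only the 3 co-culture libraries at 36 h stood apart, and at 72 h its co-culture effect was -0.28 (adjusted p = 0.00803). The difference was -1.98 ± 0.09 (SE, adjusted p = 3.45e-09), with changes of -1.82 in co-culture and 0.17 in normal culture. Ier3, an early gene that modulates ERK signalling and survival, had 66.2, 67.2 and 75.9 FPKM at 72 h and 138, 138 and 143 FPKM at 36 h in co-culture. Normal culture had 60.0, 62.7 and 57.5 FPKM at 72 h and 54.6, 64.2 and 55.9 FPKM at 36 h, and these groups overlapped. It fell by 1.00 in co-culture and changed by 0.05 in normal culture (adjusted p = 0.503), for a difference of -1.04 (adjusted p = 3.47e-06). Klf2, a transcription factor of the Krüppel-like family, fell by 0.70 in co-culture and rose by 0.28 in normal culture, for a difference of -0.98 (adjusted p = 3.1e-08). Over the 21 called genes, 12 moved in opposite directions in the cultures, 4 in normal culture alone, 3 in co-culture alone and 2 fell in both (Fosl2 and Atf3, named after their values were seen). Normal culture made the larger change in 12 and co-culture in 9.

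**Figure D2:**
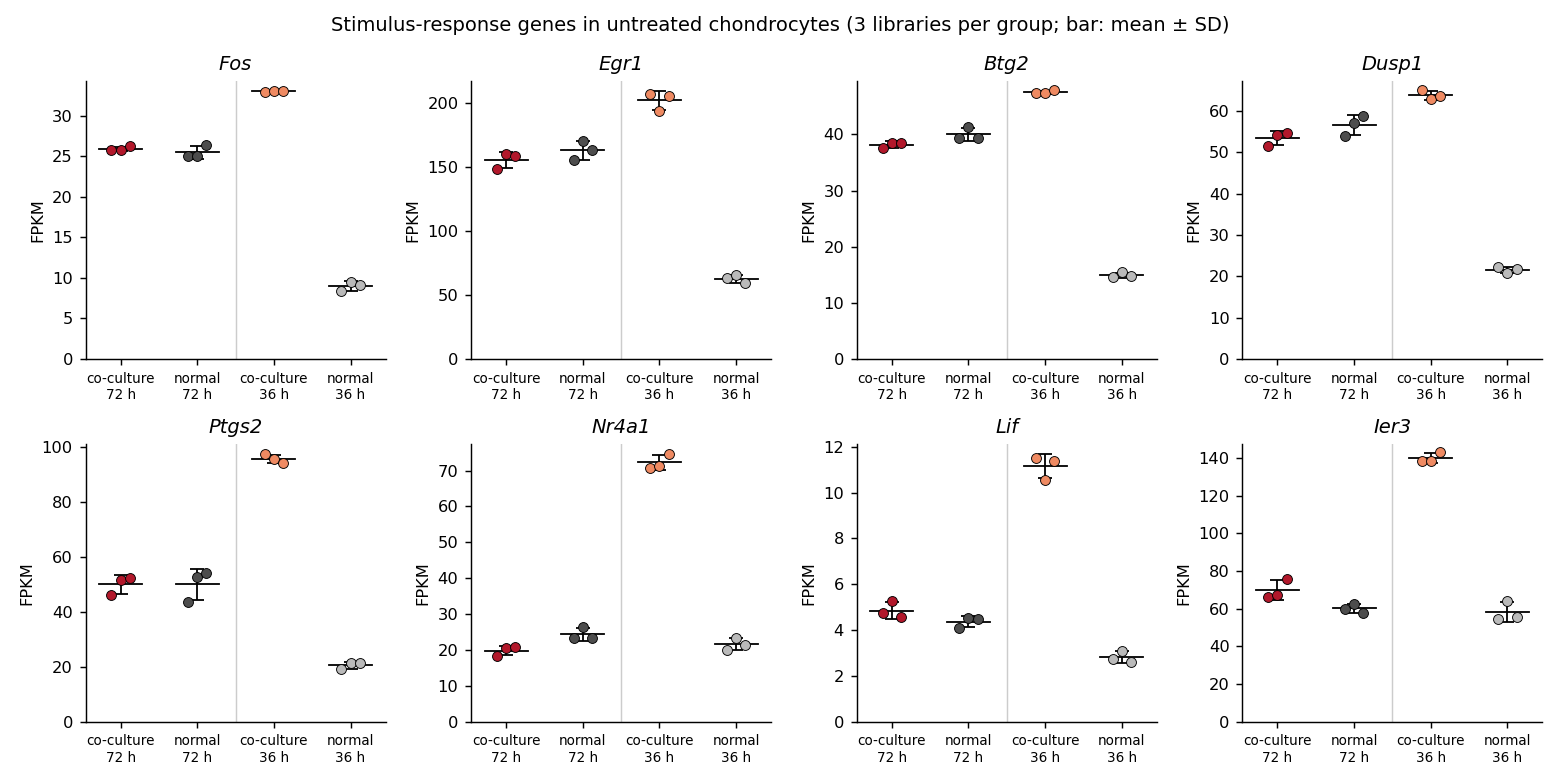
FPKM of 8 stimulus-response genes in each library; points are libraries, long bars the mean of 3 and error bars the SD, with co-culture and normal culture at 72 h on the left of each panel and at 36 h on the right. For Fos, Egr1, Btg2 and Dusp1 the 3 normal libraries at 36 h lie below all others, and for Nr4a1, Lif and Ier3 the 3 co-culture libraries at 36 h lie above all others.

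Upstream sequences are given for Ptgs2, Nr4a1, Fos, Btg2 and Dusp1, which are 5 of the 6 most negative named genes. These genes did not share a single shape. Fos, Btg2 and Dusp1 were low in normal culture at 36 h, and Nr4a1 was high in co-culture at 36 h. Ptgs2 fell in co-culture and rose in normal culture between the times. Each runs 5′ to 3′ along the gene's strand over the 250 bases before the RefSeq start (GRCm38.p6). Capitals mark TGACG and its reverse complement CGTCA, the core of the cAMP response element bound by CREB and ATF proteins. Where both overlap they form the full palindrome TGACGTCA.
Ptgs2 (plus strand, chr1:150099781-150100030): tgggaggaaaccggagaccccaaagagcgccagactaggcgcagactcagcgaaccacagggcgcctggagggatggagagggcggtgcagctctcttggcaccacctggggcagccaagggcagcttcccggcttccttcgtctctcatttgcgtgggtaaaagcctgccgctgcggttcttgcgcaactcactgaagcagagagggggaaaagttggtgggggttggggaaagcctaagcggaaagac
Nr4a1 (plus strand, chr15:101266596-101266845): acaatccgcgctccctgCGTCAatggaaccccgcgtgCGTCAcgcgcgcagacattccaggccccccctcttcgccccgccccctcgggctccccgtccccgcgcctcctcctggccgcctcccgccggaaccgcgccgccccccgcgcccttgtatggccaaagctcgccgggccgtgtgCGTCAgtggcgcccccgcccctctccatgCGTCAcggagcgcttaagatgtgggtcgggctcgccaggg
Fos (plus strand, chr12:85473640-85473889): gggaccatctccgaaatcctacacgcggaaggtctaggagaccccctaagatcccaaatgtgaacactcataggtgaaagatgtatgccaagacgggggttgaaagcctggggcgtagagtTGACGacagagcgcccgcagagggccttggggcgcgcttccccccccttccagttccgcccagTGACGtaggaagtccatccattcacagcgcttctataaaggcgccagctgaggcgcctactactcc
Btg2 (minus strand, chr1:134079156-134079405): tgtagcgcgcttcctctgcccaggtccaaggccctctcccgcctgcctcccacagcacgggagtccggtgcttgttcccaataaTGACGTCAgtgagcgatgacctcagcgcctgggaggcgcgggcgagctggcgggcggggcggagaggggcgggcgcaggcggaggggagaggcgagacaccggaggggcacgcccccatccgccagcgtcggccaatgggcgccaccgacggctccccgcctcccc
Dusp1 (minus strand, chr17:26508473-26508722): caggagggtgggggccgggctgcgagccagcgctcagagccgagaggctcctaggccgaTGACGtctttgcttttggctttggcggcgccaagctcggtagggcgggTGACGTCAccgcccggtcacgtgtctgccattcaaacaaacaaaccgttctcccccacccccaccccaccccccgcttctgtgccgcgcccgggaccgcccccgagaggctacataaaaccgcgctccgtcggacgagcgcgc
The core occurred 4 times in the Nr4a1 window, 2 times in Fos, 2 overlapping times in Btg2 and 3 times in Dusp1, of which a pair overlapped, and did not occur in the Ptgs2 window. It was found on either strand in 17.8% of the 32851 promoter windows of this length, in 31.1% of the 9462 tested genes matched to the table, and in 10 of 17 called immediate early genes with a window (58.8%). The palindrome TGACGTCA was in 1.55% of all windows, 3.09% of the tested genes and 2 of the 17, and the AP-1 motif TGANTCA was in 6.75% of all windows, 5.49% of the tested genes and none of the 17. The CArG box, the serum response factor motif, was in 1.47% of all windows, 1.4% of the tested genes and 2 of the 17. These are matches of letters and not measured binding sites. Of these genes, Ptgs2 lies at chr1:150100031-150108227, Nr4a1 at chr15:101254269-101274795, Fos at chr12:85473890-85477273, Btg2 at chr1:134075170-134079120 and Dusp1 at chr17:26505590-26562128 (GENCODE vM21, GRCm38, whole genes, all protein-coding). For Nr4a1 and Dusp1 the annotated gene reaches beyond the RefSeq start used for the window.

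Genes that feed back on ERK signalling had fewer calls, all negative: 9 of 18 tested, against 7.31% of all tested genes. Their median co-culture effect was -0.06 at 72 h and 0.34 at 36 h. Dusp1, a phosphatase that inactivates MAP kinases, had 51.6, 54.1 and 54.6 FPKM at 72 h and 65.0, 63.0 and 63.5 FPKM at 36 h in co-culture. Normal culture had 53.9, 57.1 and 58.8 FPKM at 72 h and 22.2, 20.8 and 21.9 FPKM at 36 h. As for Fos, only normal culture at 36 h was low, and the difference was -1.60 ± 0.05 (SE, adjusted p = 1.7e-10). Dusp5, a nuclear phosphatase specific for ERK, changed by -0.12 in co-culture (adjusted p = 0.237) and rose by 1.13 in normal culture, for a difference of -1.25 (adjusted p = 2.34e-05). Dusp6, its cytoplasmic counterpart, had a difference of -0.81 (adjusted p = 1.51e-06). Errfi1, an inhibitor of the EGF receptor, fell in co-culture alone, to 51.1 ± 4.69 FPKM at 72 h against 105 ± 1.49 FPKM at 36 h (SD, n = 3), with a difference of -0.93 (adjusted p = 1.99e-05). Among ligands of the EGF receptor, Ereg had a difference of -1.12 (adjusted p = 4.27e-07) and Hbegf of -0.81 (adjusted p = 0.00055). Ereg fell by 0.60 in co-culture and rose by 0.52 in normal culture, while Hbegf rose in both, by 0.69 in co-culture and 1.50 in normal culture.

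Ptgs2, which encodes cyclooxygenase 2 of prostaglandin synthesis, had the most negative difference of the named genes. In co-culture it had 46.0, 51.5 and 52.4 FPKM at 72 h and 97.3, 95.6 and 94.2 FPKM at 36 h. In normal culture it had 43.5, 52.5 and 54.1 FPKM at 72 h and 19.0, 21.4 and 21.2 FPKM at 36 h. The cultures overlapped at 72 h and were far apart at 36 h. Co-culture fell by 0.93 and normal culture rose by 1.24, a difference of -2.17 ± 0.10 (SE, adjusted p = 6.44e-09). Lif, a cytokine of the IL-6 family, had 4.76, 5.25 and 4.55 FPKM at 72 h and 11.5, 10.5 and 11.4 FPKM at 36 h in co-culture. Normal culture had 4.09, 4.52 and 4.48 FPKM at 72 h and 2.75, 3.10 and 2.60 FPKM at 36 h. Its difference was -1.55 ± 0.09 (SE, adjusted p = 7.44e-08), and the larger change, -1.05, was in co-culture. Il6 itself fell in both cultures, with changes of -3.94 in co-culture and -2.99 in normal culture, for a difference of -0.95 (adjusted p = 0.00023). Its level was 2.87 ± 0.416 FPKM in co-culture and 4.29 ± 0.652 FPKM in normal culture at 72 h, and 58.1 ± 1.87 FPKM in co-culture and 40.8 ± 2.99 FPKM in normal culture at 36 h, so co-culture stood lower at 72 h and higher at 36 h.

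Of 18 tested inflammatory cytokine and chemokine genes, 6 had a positive and 5 a negative difference, so this list did not move one way. The shares over all tested genes were 10.3% positive and 7.31% negative. Il1rn, the IL-1 receptor antagonist, had a positive difference of 0.62 (adjusted p = 0.00206). It changed by 0.08 in co-culture (adjusted p = 0.384) and fell by 0.55 in normal culture. Nos2, the inducible nitric oxide synthase, had 0.01 FPKM in each co-culture library and 0.05, 0.09 and 0.16 FPKM in normal culture at 72 h. At 36 h it had 3.15, 3.55 and 3.36 FPKM in co-culture and 1.28, 1.37 and 1.37 FPKM in normal culture. It was under 1 FPKM in all 6 libraries at 72 h and higher in co-culture at 36 h, and the difference was -1.02 ± 0.09 (SE, adjusted p = 8.68e-06). With levels this low at 72 h its size rests on the pseudocount, and it was -2.09 with 0.1 in place of 1. The acute phase gene Saa3 had 0.883 ± 0.137 FPKM in co-culture and 4.62 ± 2.35 FPKM in normal culture at 72 h, and 56.3 ± 6.70 FPKM in co-culture and 108 ± 9.68 FPKM in normal culture at 36 h. Its co-culture effect was -1.49 at 72 h and -0.93 at 36 h, and its difference of -0.56 was not called (adjusted p = 0.211).

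The most positive differences were those of Sfrp2, Egfl6 and Agtr2. Of the 15 most positive named genes, 14 were lower in co-culture at 36 h, all but Cox6a2. Between the times 12 of the 15 fell in both cultures, further in normal culture; Gas6 and Mgp rose in co-culture and fell in normal culture, and Isyna1 fell in normal culture alone. Because RNA came from whole cultures, fewer cells of a type and less RNA per cell cannot be told apart. Sfrp2, a secreted modulator of WNT signalling and a marker of dermal fibroblasts, had 48.1, 36.1 and 42.5 FPKM at 72 h and 110.0, 108 and 108 FPKM at 36 h in co-culture. Normal culture had 48.7, 35.0 and 38.6 FPKM at 72 h and 287, 271 and 269 FPKM at 36 h. All 6 libraries at 72 h lay together, and at 36 h co-culture lay far below normal culture. The difference was 1.39 ± 0.14 (SE, adjusted p = 2.8e-05), with changes of -1.35 in co-culture and -2.74 in normal culture.

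Agtr2, the type 2 receptor of angiotensin II, had 3.33, 2.64 and 3.45 FPKM at 72 h and 14.2, 14.1 and 13.6 FPKM at 36 h in co-culture. In normal culture it had 4.90, 3.35 and 4.12 FPKM at 72 h and 42.0, 41.6 and 42.8 FPKM at 36 h. It fell in both cultures, had a co-culture effect of -0.30 at 72 h (adjusted p = 0.0366), and had a difference of 1.23 ± 0.13 (SE, adjusted p = 3.24e-05). Egfl6, a secreted protein with EGF repeats, averaged 2.38 ± 0.340 FPKM in co-culture and 2.23 ± 0.438 FPKM in normal culture at 72 h. At 36 h it averaged 7.92 ± 0.699 FPKM in co-culture and 19.9 ± 0.661 FPKM in normal culture (SD, n = 3), and its difference was 1.30 (adjusted p = 2.28e-05). Dpt, the matrix protein dermatopontin and another marker of dermal fibroblasts, had a difference of 1.00 (adjusted p = 0.000487).

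The whole dermal fibroblast list of 16 genes had a summed level of 2310 to 2380 FPKM in co-culture and 2510 to 2590 FPKM in normal culture at 72 h. At 36 h it was 3160 to 3180 FPKM in co-culture and 3040 to 3130 FPKM in normal culture. Lox weighed most in this sum, at 1760 FPKM in co-culture and 1280 FPKM in normal culture at 36 h. Gene by gene, 2 of the 15 tested were higher and 7 lower in co-culture at 36 h, against 10.3% and 16.4% of all tested genes. All 16 genes reached 1 FPKM in at least some library, and none was at 0 in all 12 libraries. Of 15 tested, 5 had a positive and 1 (Lox, -0.56) a negative difference, against 10.3% and 7.31% of all tested genes. Fibroblast RNA in the chondrocyte wells as a part of the result was not tested.

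In a pair of the secreted factors the cultures moved in opposite directions. Gas6, a ligand of the TAM receptor kinases, had 161, 150.3 and 161 FPKM at 72 h and 135, 132 and 133 FPKM at 36 h in co-culture. Normal culture had 183, 157 and 165 FPKM at 72 h and 300.5, 283 and 278 FPKM at 36 h. Co-culture rose by 0.24 and normal culture fell by 0.77, a difference of 1.00 ± 0.07 (SE, adjusted p = 8.29e-07). Mgp, the matrix Gla protein that inhibits calcification, rose by 0.38 in co-culture and fell by 0.45 in normal culture, for 0.83 (adjusted p = 3.57e-05). Its level was 477 ± 47.3 FPKM in co-culture and 421 ± 29.1 FPKM in normal culture at 72 h, against 364 ± 7.02 FPKM in co-culture and 574 ± 17.0 FPKM in normal culture at 36 h.

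Of 15 tested IGF system genes, 5 had a positive difference and none a negative one, against 10.3% and 7.31% of all tested genes. In all 5 normal culture made the larger change. Igfbp3, a binding protein that carries IGF ligands, had 10.0, 8.69 and 10.5 FPKM at 72 h and 36.6, 37.3 and 37.1 FPKM at 36 h in co-culture. Normal culture had 12.9, 10.5 and 11.9 FPKM at 72 h and 92.9, 76.4 and 85.7 FPKM at 36 h. Its difference was 0.92 ± 0.11 (SE, adjusted p = 0.000114), with changes of -1.83 in co-culture and -2.75 in normal culture. Igf1, the ligand, averaged 11.1 ± 1.35 FPKM in co-culture and 10.5 ± 0.736 FPKM in normal culture at 72 h, and 22.9 ± 0.244 FPKM in co-culture and 39.7 ± 0.623 FPKM in normal culture at 36 h, a difference of 0.83 (adjusted p = 6.65e-05). Igfbp4, another binding protein, had a difference of 0.49 (adjusted p = 0.00264), and Htra3, a secreted protease, of 0.35 (adjusted p = 0.00566).

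Cxcl12, a chemokine that binds CXCR4, had 180.1, 164 and 171 FPKM at 72 h and 303, 303 and 311 FPKM at 36 h in co-culture. Normal culture had 167, 155 and 162 FPKM at 72 h and 512, 535 and 514 FPKM at 36 h. The libraries of the cultures did not overlap at 36 h and overlapped at 72 h, and the difference was 0.85 ± 0.05 (SE, adjusted p = 2.79e-07). Ptn, the heparin-binding growth factor pleiotrophin, had a difference of 0.88 (adjusted p = 6.01e-05), and the GDNF co-receptor gene Gfra1 of 0.98 (adjusted p = 4.41e-06). The ferritin receptor gene Scara5 had 0.92 (adjusted p = 0.000322) and the glutathione-cleaving enzyme gene Ggt5 0.93 (adjusted p = 0.000771). Isyna1, the first enzyme of inositol synthesis, changed by -0.08 in co-culture (adjusted p = 0.263) and fell by 0.87 in normal culture, for 0.80 (adjusted p = 3.3e-05).

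**Figure D3:**
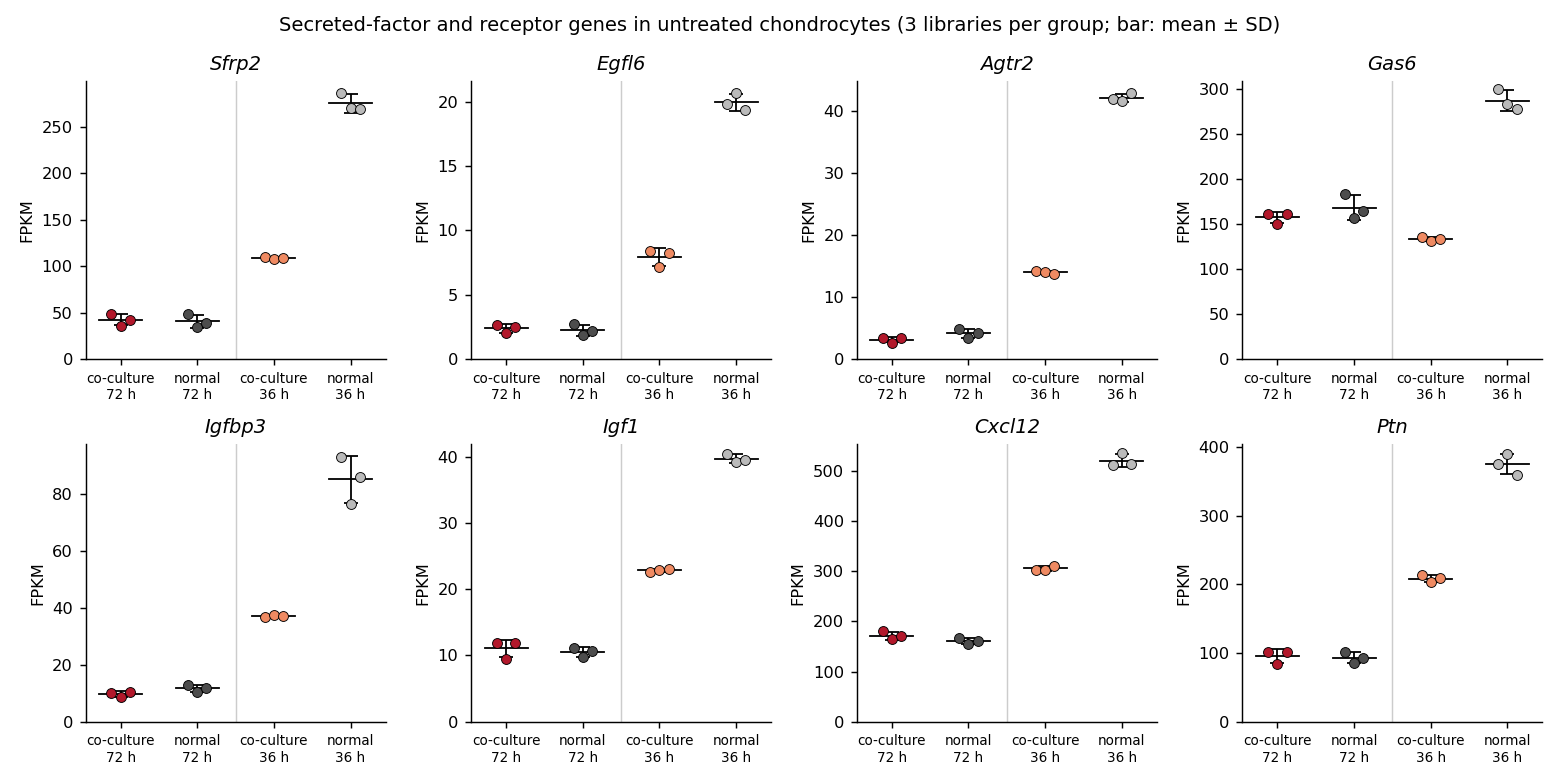
FPKM of 8 genes of secreted factors and receptors in each library; points are libraries, long bars the mean of 3 and error bars the SD, with co-culture and normal culture at 72 h on the left of each panel and at 36 h on the right. In every panel the 3 normal libraries at 36 h are the highest, and the groups at 72 h lie close together.

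Of 20 tested WNT genes, 5 were positive and 2 negative, against 10.3% positive and 7.31% negative among all tested genes, with Sfrp1, another WNT antagonist, at 0.62 (adjusted p = 0.000322) and Wnt5b, a ligand, at 0.54 (adjusted p = 0.00164). Dkk2, a WNT antagonist, went the other way. It fell by 0.92 in co-culture and changed by -0.05 in normal culture (adjusted p = 0.501), for -0.87 (adjusted p = 3.86e-05). Of 16 complement genes 5 were positive and none negative, including the central component C3 at 0.43 (adjusted p = 0.00912) and C4b at 0.49 (adjusted p = 0.0067). The call of C3 was lost with a pseudocount of 0.1 (adjusted p = 0.18). C1qc, a subunit of C1q made mainly by macrophages, rose more in co-culture (1.24) than in normal culture (0.78), for 0.46 (adjusted p = 0.0111), a call lost with all 24 libraries in the fit (adjusted p = 0.149).

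Among 23 tested small leucine-rich proteoglycan and interstitial collagen genes, 10 were positive and 3 negative, against 10.3% and 7.31% of all tested genes. The collagen genes went both ways. Col3a1, the main chain of type III collagen, changed by -1.19 in co-culture and -1.50 in normal culture, and Col1a2, a chain of type I collagen, by -0.37 in co-culture and -0.57 in normal culture. Col1a1 had a difference of 0.20 (adjusted p = 0.0126). Against these, Col5a2, a chain of type V collagen, had -0.22 (adjusted p = 0.0062), and Col8a1, a chain of type VIII collagen, -0.34 (adjusted p = 0.00242). The positive count of the whole list was 4 to 6 without normal replicate 1 or 2 at 36 h, co-culture replicate 1 or 2 at 36 h, normal replicate 2 or 3 at 72 h, or co-culture replicate 1 or 3 at 72 h, and 3 with all 24 libraries in the fit.

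Most hypoxia-induced genes were higher in co-culture at both times. Of 27 tested, 20 were higher and none lower in co-culture at 72 h, against 8.06% and 8.30% of all tested genes. At 36 h 24 were higher and 2 lower, against 10.3% and 16.4%. The median effect over the list was 0.37 at 72 h and 0.56 at 36 h. The difference was negative in 11 of the 27 and positive in 2, against 7.31% and 10.3% of all tested genes. Co-culture made the larger change in 11 of the 13 called. Egln3, a prolyl hydroxylase that marks HIF for degradation and is itself a HIF target, had 8.02, 6.71 and 9.53 FPKM at 72 h and 57.0, 57.9 and 56.0 FPKM at 36 h in co-culture. Normal culture had 2.69, 3.72 and 3.41 FPKM at 72 h and 16.2, 17.8 and 16.3 FPKM at 36 h. Co-culture was above normal culture in all libraries at each time, and the difference was -0.62 ± 0.14 (SE, adjusted p = 0.00808), a call lost with a pseudocount of 0.1 (adjusted p = 0.0551).

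Ero1l, an oxidase of protein folding, had 50.2, 46.1 and 56.0 FPKM at 72 h and 192, 192 and 185 FPKM at 36 h in co-culture. Normal culture had 38.6, 38.6 and 39.3 FPKM at 72 h and 77.3, 86.1 and 80.5 FPKM at 36 h. The difference was -0.84 ± 0.08 (SE, adjusted p = 1.15e-05), with changes of -1.89 in co-culture and -1.05 in normal culture. Vegfa, the angiogenic growth factor, averaged 60.3 ± 3.43 FPKM in co-culture and 58.3 ± 4.21 FPKM in normal culture at 72 h, and 126 ± 1.52 FPKM in co-culture and 77.3 ± 4.60 FPKM in normal culture at 36 h. Its difference was -0.65 (adjusted p = 9.14e-05), and that of Adm, the vasodilator adrenomedullin, was -0.47 (adjusted p = 1.8e-05). Angptl4, a lipase inhibitor induced by hypoxia and by PPAR receptors, went the other way at 0.75 (adjusted p = 0.0037), with changes of -3.37 in co-culture and -4.12 in normal culture. With all 24 libraries in the fit the list had 5 negative genes.

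Glycolysis genes, many of them HIF targets, followed: 9 of 22 were negative and 2 positive, against 7.31% and 10.3% of all tested genes. Co-culture made the larger change in 8 of the 11 called. Pgk1, phosphoglycerate kinase, had 782, 707 and 757 FPKM at 72 h and 1317, 1302 and 1264 FPKM at 36 h in co-culture. Normal culture had 606, 592 and 575 FPKM at 72 h and 838, 839.8 and 831 FPKM at 36 h. Co-culture libraries lay above normal ones at each time, and the difference was -0.29 ± 0.05 (SE, adjusted p = 0.00281). Hk2, a hexokinase, fell by 0.49 in co-culture and changed by -0.05 in normal culture (adjusted p = 0.394), for -0.44 (adjusted p = 0.00168), and Aldoc, an aldolase, had -0.86 (adjusted p = 0.000632). The monocarboxylate transporter gene Slc16a1 was positive at 0.33 (adjusted p = 0.000181). With all 24 libraries in the fit the list had 3 negative genes.

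Cartilage genes divided. Of 20 tested matrix genes, 6 were negative and 3 positive, against 7.31% negative and 10.3% positive among all tested genes. Col2a1, the main collagen of cartilage, had 733, 804 and 795 FPKM at 72 h and 404, 395 and 380.1 FPKM at 36 h in co-culture. Normal culture had 768, 761 and 765 FPKM at 72 h and 309, 289 and 309 FPKM at 36 h. Between the times co-culture changed by 0.98 and normal culture by 1.34, and the difference was -0.36 ± 0.06 (SE, adjusted p = 0.00111). Acan, the core protein of aggrecan, had -0.35 (adjusted p = 0.00304), and Hapln1, the link protein that binds aggrecan to hyaluronan, had -0.35 (adjusted p = 0.00108). With all 24 libraries in the fit both calls were lost, at an adjusted p of 0.268 for Acan and 0.0516 for Hapln1, and the list had 3 negative genes.

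Prg4, the lubricin of the cartilage surface, rose in normal culture. In co-culture it had 32.4, 31.4 and 33.4 FPKM at 72 h and 33.1, 32.0 and 31.1 FPKM at 36 h. In normal culture it had 49.3, 51.1 and 51.0 FPKM at 72 h and 32.8, 28.1 and 30.2 FPKM at 36 h. Only normal culture at 72 h stood apart, 0.72 above normal culture at 36 h, and the difference was -0.70 ± 0.07 (SE, adjusted p = 1.49e-05). Prelp, a matrix proteoglycan, fell by 0.36 in co-culture and rose by 0.15 in normal culture, for -0.51 (adjusted p = 1.61e-05). Sox9, the transcription factor that drives cartilage genes, stood at 0.05 (adjusted p = 0.63), and Col10a1, the collagen of hypertrophic chondrocytes, at -0.21 (adjusted p = 0.133); neither was called.

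Matrix-degrading enzymes were mixed, with 7 positive and 4 negative of 25. All tested genes had 10.3% positive and 7.31% negative calls. Mmp13, a collagenase, averaged 11.2 ± 1.96 FPKM in co-culture and 10.3 ± 1.33 FPKM in normal culture at 72 h, and 233 ± 8.20 FPKM in co-culture and 310.3 ± 16.2 FPKM in normal culture at 36 h. Its difference was 0.52 (adjusted p = 0.0226), lost with no filter, with all 24 libraries in the fit, and without normal replicate 1 at 36 h or co-culture replicate 1 or 3 at 72 h (adjusted p = 0.0539 to 0.13). Adamts5, an aggrecanase, had -0.32 (adjusted p = 0.00123). Mmp3, or stromelysin 1, had a co-culture effect of -0.61 at 72 h and -0.77 at 36 h and was not called (adjusted p = 0.629). Of the protease inhibitors 3 of 13 were positive and 3 negative, with Timp3, an inhibitor of metalloproteinases, at -0.48 (adjusted p = 1.94e-05).

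Contractile genes gave negative differences. Of 15 myofibroblast genes 6 were negative and none positive, and normal culture made the larger change in all 6; with all 24 libraries in the fit 1 was negative, and leaving out a library gave 4 to 6. Tagln, an actin-binding protein, rose by 0.93 in co-culture and 1.38 in normal culture, for -0.45 (adjusted p = 0.000296), a call lost with all 24 libraries (adjusted p = 0.0517). Cald1, the actin-binding protein caldesmon, had -0.43 (adjusted p = 5.5e-05). Of 25 genes of the TGF-beta list 7 were negative and 5 positive, against 7.31% and 10.3% of all tested genes. Inhba, the activin A subunit, averaged 36.0 ± 1.20 FPKM in co-culture and 40.3 ± 4.84 FPKM in normal culture at 72 h, and 26.1 ± 0.506 FPKM in co-culture and 16.0 ± 0.888 FPKM in normal culture at 36 h, a difference of -0.82 (adjusted p = 7.87e-05). Ccn2, a matricellular target of TGF-beta and YAP, had -0.67 (adjusted p = 5.89e-06). Of 13 epithelial genes 6 were negative and none positive, led by Krt19, a keratin, with 8.41, 9.88 and 9.60 FPKM at 72 h and 7.79, 7.35 and 6.26 FPKM at 36 h in co-culture. Normal culture had 10.6, 10.2 and 10.1 FPKM at 72 h and 2.13, 2.29 and 1.91 FPKM at 36 h. Normal culture at 36 h was again the low group, and the difference was -1.52 ± 0.10 (SE, adjusted p = 5.32e-07).

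The list of p53 targets and senescence genes had a median change between the times of 0.41 in co-culture and 0.75 in normal culture. Of its genes 10 of 23 were negative and none positive, against 7.31% and 10.3% of all tested genes. Normal culture made the larger change in 9 of the 10. Mdm2, the ubiquitin ligase that restrains p53, had 39.3, 40.4 and 39.7 FPKM at 72 h and 24.6, 26.2 and 23 FPKM at 36 h in co-culture. Normal culture had 47.0, 51.2 and 49.7 FPKM at 72 h and 24.3, 23.2 and 23.9 FPKM at 36 h. At 72 h the co-culture effect was -0.30 (adjusted p = 0.000736), at 36 h it was 0.04 (adjusted p = 0.507), and the difference was -0.34 ± 0.06 (SE, adjusted p = 0.00261). Cdkn1a, the cell cycle inhibitor p21, had -0.24 (adjusted p = 0.0233), lost without co-culture replicate 2 at 36 h or replicate 1 at 72 h. With all 24 libraries in the fit, 2 genes of the list were negative, among 23.

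Cell cycle genes went the other way. The mitosis list had a median co-culture effect of 0.06 at 72 h and -0.10 at 36 h. Of 30 mitosis genes 12 were positive and none negative, where all tested genes had 10.3% positive and 7.31% negative calls. Co-culture made the larger change in all 12. Cdc20, an activator of the anaphase-promoting complex, averaged 79.3 ± 2.75 FPKM in co-culture and 69.5 ± 0.580 FPKM in normal culture at 72 h, and 25.5 ± 1.25 FPKM in co-culture and 28.6 ± 0.982 FPKM in normal culture at 36 h, a difference of 0.35 (adjusted p = 0.0011). Of 32 DNA replication genes 11 were positive and 1 negative. Mcm5, a subunit of the replicative helicase, had 30.7, 31.4 and 31.0 FPKM at 72 h and 9.48, 9.94 and 9.73 FPKM at 36 h in co-culture. Normal culture had 26.2, 25.9 and 28.3 FPKM at 72 h and 11.6, 10.9 and 11.8 FPKM at 36 h. Co-culture was the higher at 72 h and the lower at 36 h, with a difference of 0.42 ± 0.06 (SE, adjusted p = 0.000411). The proliferation marker Mki67 was not called (0.04, adjusted p = 0.701). Neither list had a call with all 24 libraries in the fit, and mitosis had 7 calls without normal replicate 1 or co-culture replicate 3 at 36 h, 7 after rescaling to TPM, 9 with median-of-ratios scaling and 8 with no filter.

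**Figure D4:**
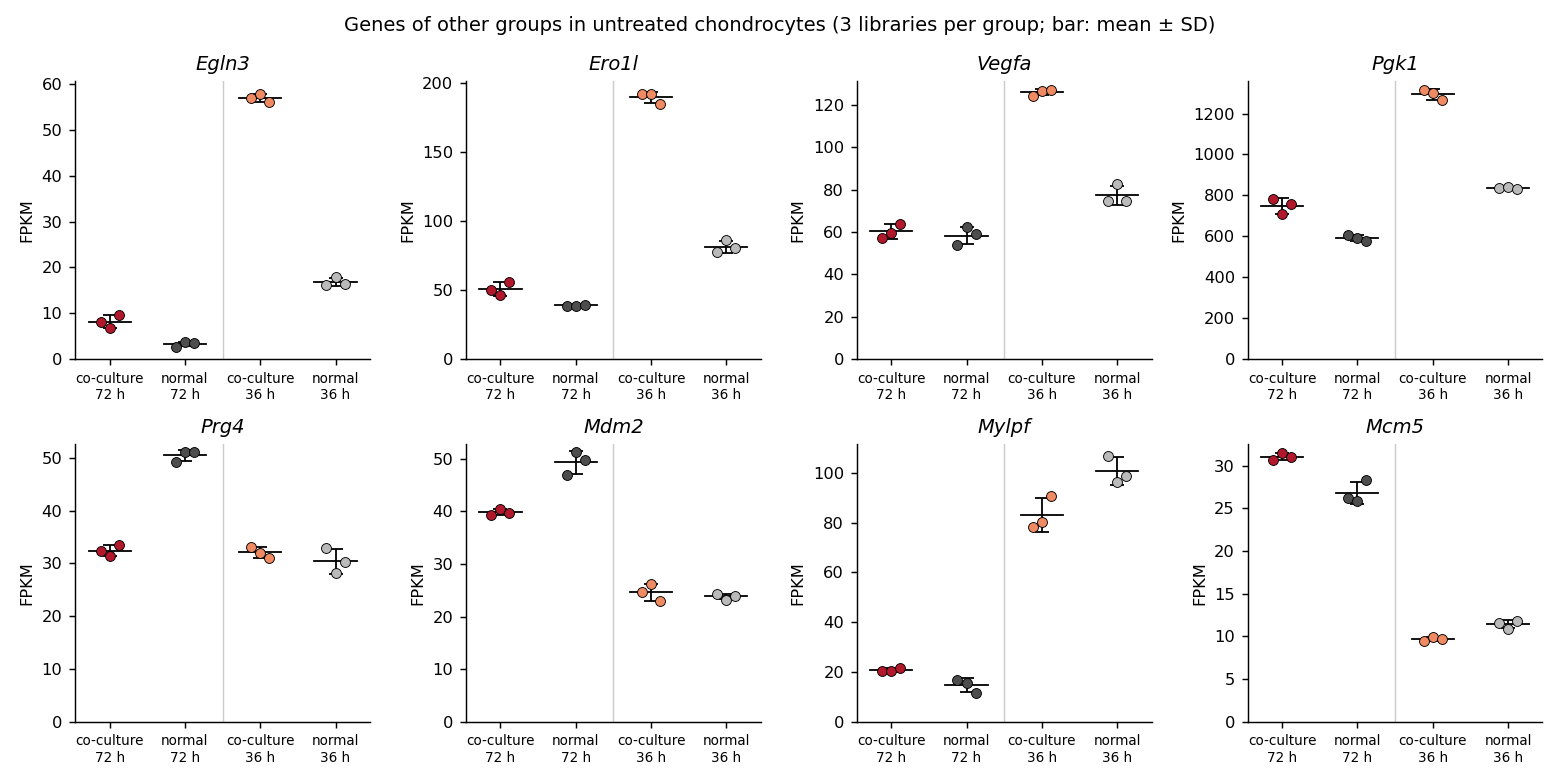
FPKM of 8 genes of the hypoxia, glycolysis, cartilage, p53, muscle and replication groups in each library; points are libraries, long bars the mean of 3 and error bars the SD, with co-culture and normal culture at 72 h on the left of each panel and at 36 h on the right. Co-culture leads for Egln3, Ero1l and Pgk1 at both times, Prg4 and Mdm2 are highest in normal culture at 72 h, and Mcm5 is highest in co-culture at 72 h.

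Metabolic genes had small differences, with counts to be read beside 10.3% positive and 7.31% negative calls among all tested genes. Of 30 nuclear-encoded respiratory chain genes 11 were positive and none negative, all with the larger change in co-culture, and Ndufa4, a subunit of cytochrome c oxidase, had 0.37 (adjusted p = 0.00499). This count was 6 without co-culture replicate 1 at 36 h or replicate 3 at 72 h, 7 without normal replicate 1 at 36 h, normal replicate 2 at 72 h or co-culture replicate 1 at 72 h, and 2 with all 24 libraries. Of 25 ATF4 and amino acid synthesis genes 10 were positive and 1 negative, and 1 was positive with all 24 libraries. Shmt2, the mitochondrial serine hydroxymethyltransferase, had 117, 117 and 113 FPKM at 72 h and 75.7, 72.1 and 70.8 FPKM at 36 h in co-culture. Normal culture had 86.2, 85.9 and 83.1 FPKM at 72 h and 68.4, 65.4 and 68.8 FPKM at 36 h. Its co-culture effect was 0.44 at 72 h and 0.11 at 36 h, a difference of 0.33 (adjusted p = 0.00049). Ddit3, the stress transcription factor CHOP, rose by 0.29 in co-culture and fell by 0.32 in normal culture, for 0.62 (adjusted p = 0.00112). Eln, the gene of elastin, rose in co-culture alone, to 21.7 ± 0.999 FPKM at 72 h against 13.6 ± 0.426 FPKM at 36 h (SD, n = 3), for 0.62 (adjusted p = 0.000212).

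All 14 tested skeletal muscle genes fell between the times in co-culture, with a median change over the list of -1.65 in co-culture and -2.12 in normal culture. Of the 14, 9 were positive and none negative, against 10.3% and 7.31% of all tested genes. Normal culture made the larger change in all 9. The summed level of the list was 78.2 to 93.5 FPKM in co-culture and 55.5 to 65.6 FPKM in normal culture at 72 h. At 36 h it was 302 to 349 FPKM in co-culture and 338 to 380 FPKM in normal culture. Of the 15 genes none was at 0 in all libraries, and Pax7 was under 1 FPKM in all 12. Mylpf, a myosin light chain of fast muscle, had 20.2, 20.6 and 21.6 FPKM at 72 h and 78.2, 80.2 and 90.8 FPKM at 36 h in co-culture. Normal culture had 16.9, 15.6 and 11.5 FPKM at 72 h and 107, 96.4 and 98.6 FPKM at 36 h, and the difference was 0.77 ± 0.14 (SE, adjusted p = 0.00265). Cox6a2, the muscle form of a cytochrome c oxidase subunit, was among the most positive genes at 0.90 (adjusted p = 0.000858) and had a co-culture effect of 0.87 at 72 h and -0.03 at 36 h. The positive count was 4 without normal replicate 1 at 36 h or replicate 3 at 72 h, 5 without co-culture replicate 1 or 2 at 36 h, and 3 with all 24 libraries. The part of muscle cells in the other differences was not tested.

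The macrophage list had no call in either direction among 11 tested genes; it holds C1qa and C1qb but not C1qc, which was called. Its sum was 108 to 120 FPKM in co-culture and 111 to 118 FPKM in normal culture at 72 h, and 56.7 to 62.3 FPKM in co-culture and 58.5 to 67.4 FPKM in normal culture at 36 h. The lymphocyte, mast cell and red blood cell genes found in the table were under 1 FPKM in all 12 libraries. Interferon-stimulated genes (21 tested) and cytosolic ribosomal protein genes (30 tested) had no call, with a median difference of 0.01 for the interferon list and 0.08 for the ribosomal list. Heat shock genes had 1 call in 12, a share near the 7.31% negative among all tested genes. It was Hspa1b, an inducible HSP70 gene, at -0.40 (adjusted p = 0.0139).

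The other lists had small counts, to be read beside 10.3% positive and 7.31% negative calls among all tested genes. Negative calls outnumbered positive ones for cholesterol synthesis genes (5 against 1 of 25), endoplasmic reticulum chaperones (4 against 0 of 20), circadian clock genes (2 against 0 of 16) and the acute phase, prostaglandin and nitric oxide list (2 against 1 of 9). Hspa5, the chaperone BiP, was at -0.27 (adjusted p = 0.00064). Of the chaperone calls, that of Atf6 was lost in 15 alternative runs, Canx in 8, Hsp90b1 in 1 and Hspa5 in none. Of the clock calls, that of Nfil3 was lost in 14 and that of Rora in 1. Over all tested genes positive calls outnumbered negative ones as well, 1220 against 868, a balance that rescaling to TPM turned to 915 against 994. They did so for NF-kB genes (4 against 2 of 18), FGF and EGF family genes (5 against 3 of 20), elastic fibre genes (5 against 3 of 17), fatty acid genes (5 against 3 of 20), hypertrophy genes (3 against 2 of 13), metal transport genes (2 against 0 of 12) and MHC class I genes (2 against 0 of 12). Irf1, an interferon regulatory factor in the NF-kB list, was at 0.52 (adjusted p = 0.000412), and H2-D1, a class I heavy chain, at 0.33 (adjusted p = 0.0027). Counts were equal for NRF2 genes (4 each of 30), oxysterol and hyaluronan genes (4 each of 12) and chondrocyte transcription factors (2 each of 13). In the oxysterol list Ch25h, which makes 25-hydroxycholesterol, was at -0.56 (adjusted p = 0.000569) and Cyp7b1, which metabolizes it, at 0.56 (adjusted p = 0.000305).

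The marker lists are short, and among all tested genes 10.3% were positive and 7.31% negative. Among the markers, the chondrocyte list had 3 negative calls of 11 and the synovial lining and tendon list 3 of 5. Keratinocyte markers had 2 negative calls of 6, pericyte and smooth muscle markers 2 negative and 1 positive of 7, and bone cell markers 1 of each of 5. Melanocyte and Schwann cell markers had 2 positive calls of 5 and adipocyte markers 1 of 2, and the endothelial and neuronal lists, with 2 genes tested in each, had none. Several of these calls were fragile: those of Cdh19, Des, Actg2, Thbs4, Ibsp, Sp7 and Perp were lost in 8 to 18 alternative runs. Those of Cspg4, Acan and Hapln1 were lost only with all 24 libraries in the fit. The calls of Col2a1, Prg4, Scx, Krt19, Ngfr and Adipoq were lost in no run that tested them.

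**Figure D5:**
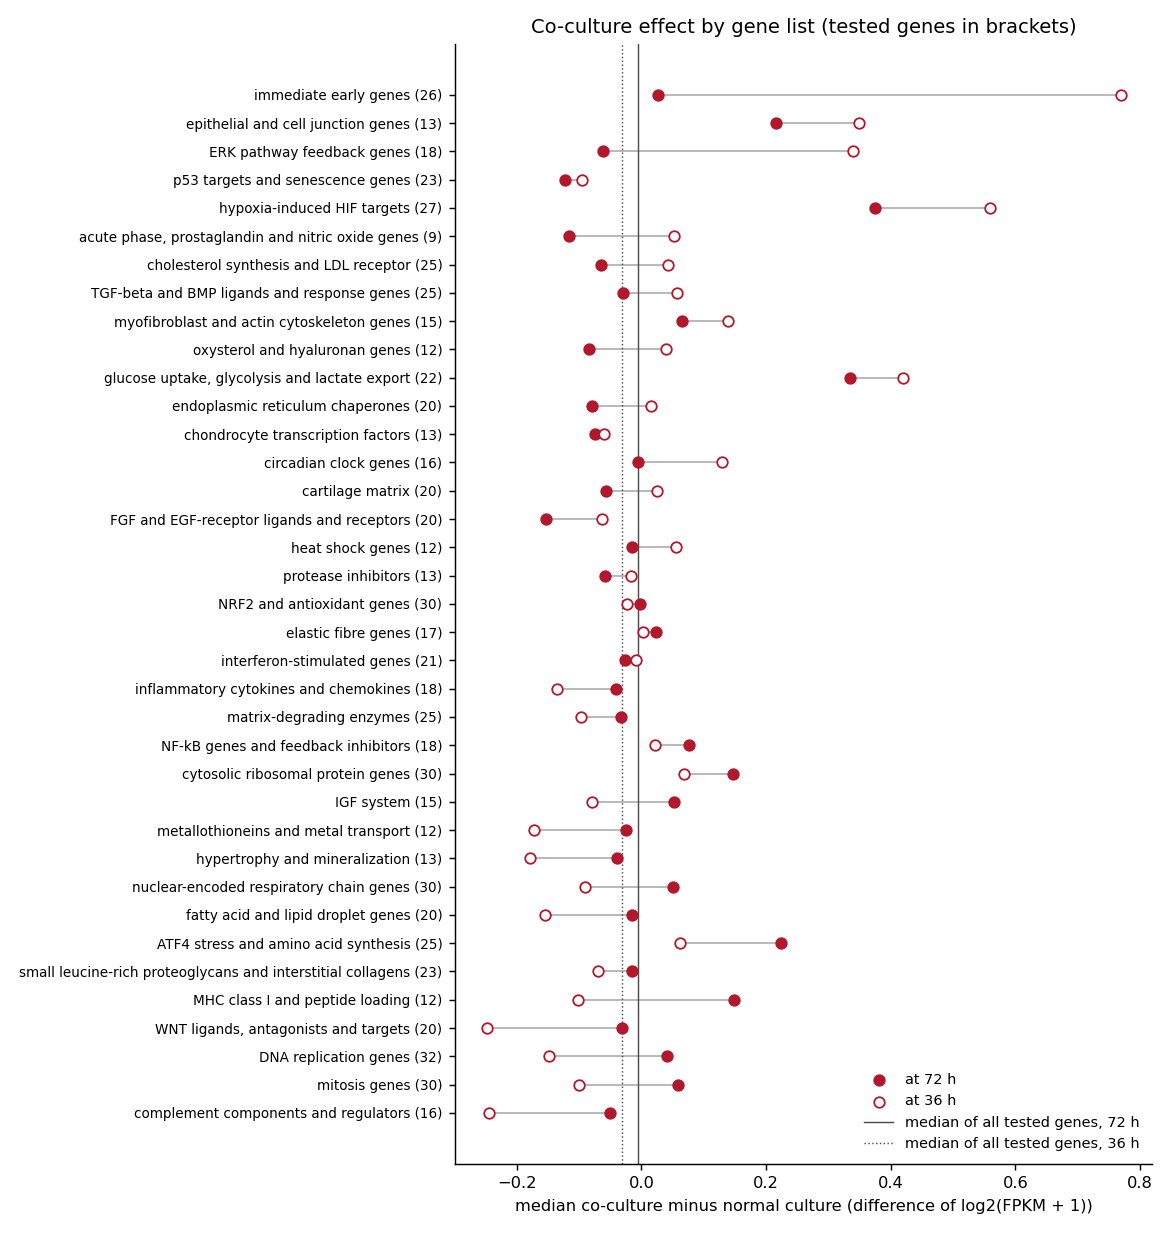
Median co-culture effect (difference of log2(FPKM + 1)) over the tested genes of each pathway list with at least 8 of them, at 72 h (filled points) and 36 h (open points), with lines for the medians of all tested genes. Lists are ordered from the most negative median difference at the top. Immediate early genes lie at 0.77 at 36 h and 0.03 at 72 h, and hypoxia-induced genes lie at 0.56 at 36 h and 0.37 at 72 h.

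The same difference between times was taken in the 12 libraries with IL-1β, and the difference between them was tested in a fit over all 24 libraries, chosen after the data were seen. It was called in 82 genes (0.690%), 41 in each direction. The immediate early list had a median time dependence of -0.63 with IL-1β, and 2 of its 26 genes differed from their value without IL-1β. Nr4a1 had -2.03 with IL-1β and -1.98 without, a change of 0.05 ± 0.12 (SE, adjusted p = 0.875). Fos had -2.22 with IL-1β, which differed by 0.47 ± 0.11 (SE, adjusted p = 0.0487). Ptgs2 was among the 82 genes. Its time dependence was -0.38 with IL-1β, and the difference was -1.78 ± 0.32 (SE, adjusted p = 0.0119). With IL-1β it stood at 439 FPKM in co-culture and 643 FPKM in normal culture at 72 h, and at 515 FPKM in co-culture and 554 FPKM in normal culture at 36 h (means of 3).

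Several other genes differed too. Gas6 differed by 0.79 ± 0.12 (SE, adjusted p = 0.0041), Igfbp3 by 0.83 ± 0.15 (SE, adjusted p = 0.0109) and Cxcl12 by 0.42 ± 0.09 (SE, adjusted p = 0.0221). With IL-1β their time dependence was 0.21 for Gas6, 0.09 for Igfbp3 and 0.43 for Cxcl12. Igfbp3 lay between 16.7 and 17.4 FPKM in the means of the 4 groups with IL-1β. Prg4 differed by -0.93 ± 0.10 (SE, adjusted p = 4.52e-05) and Lif by -0.78 ± 0.18 (SE, adjusted p = 0.0461). Sfrp2 had 0.59 with IL-1β, and its difference of 0.80 ± 0.19 (SE, adjusted p = 0.052) was not called. Of the cartilage matrix list 4 of 20 genes differed, all negative, and of the hypoxia list none of 27.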

How the data were processed

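The authors deposited 1 FPKM value per gene and library (poly(A) RNA, per the labels' protocols; genome build GRCm38, per the submitters' processing notes) for 17094 genes; the aligner, counting tool and annotation are not given in the sources used here. FPKM hides how many reads support a value, so no counting interval was computed.

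Of the 24 libraries, the 12 without IL-1β were fitted as log2(FPKM + 1) with limma 3.58.1 in R 4.3.3, with 1 mean per group of 3, a trended prior and 8 residual degrees of freedom. Genes at 1 FPKM or more in at least 3 of the 12 libraries entered the test, which left 11879, with adjustment over these and a threshold of 0.05. The comparison was the co-culture effect at 72 h minus that at 36 h, with each culture's change between the times. Named genes were the 15 most positive and 15 most negative called genes with a group mean of at least 5 FPKM, up to 4 members of each of 37 lists with the smallest adjusted p, up to 3 members of 15 marker lists, and a fixed set of core genes; others are said to have been chosen later. Of 907 listed genes 876 matched the table, 3 through a synonym. Members and lists were chosen with earlier results of these data known. Alternatives were another pseudocount (0.1), other filters, TPM and median-of-ratios scaling, all 24 libraries, replicate blocks, library weights and leaving out each library; the comparison with IL-1β was added after seeing the data. The procedure was tested on simulated data. Positions came from GENCODE vM21 and promoters from RefSeq (GRCm38.p6). Figures used matplotlib 3.10.9 under Python 3.11.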

Additional observations from a re-analysis of the deposited data

Results flagged for a closer look

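The co-culture effect differed between 72 h and 36 h, by the test of the difference itself (limma, Benjamini-Hochberg), in 2088 genes. In the following the value after each gene is its difference on the log2(FPKM + 1) scale, the co-culture effect at 72 h minus that at 36 h. The most negative were Ptgs2 -2.17, Nr4a1 -1.98, Fos -1.75, Egr1 -1.74, Btg2 -1.67, Dusp1 -1.60, Lif -1.55, Krt19 -1.52, Egr2 -1.36, Dusp5 -1.25, Ier2 -1.17, Ereg -1.12, Zfp36 -1.11, Ier3 -1.04 and Klf2 -0.98. The most positive were Sfrp2 1.39, Egfl6 1.30, Agtr2 1.23, Gas6 1.00, Dpt 1.00, Gfra1 0.98, Ggt5 0.93, Scara5 0.92, Igfbp3 0.92, Cox6a2 0.90, Ptn 0.88, Cxcl12 0.85, Mgp 0.83, Igf1 0.83 and Isyna1 0.80. Genes of cartilage, inflammation and growth named whatever their result, and called, were Col2a1 -0.36, Acan -0.35, Col1a1 0.20, Prg4 -0.70, Mmp13 0.52, Adamts5 -0.32, Il6 -0.95, Egln3 -0.62 and Cdkn1a -0.24.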

How the results depend on the processing

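No named gene with a called difference changed sign under any alternative run. The count of 2088 called genes stayed within 1.5 times under every alternative but the fit over all 24 libraries. That fit called 624 genes, 343 positive and 281 negative, with 457 for the co-culture effect at 72 h and 1884 at 36 h, and of the 624, 117 moved in normal culture alone, 151 in co-culture alone, 298 in both in the same direction and 58 in opposite directions. Of the genes named in the text, Adamts5, Cdc20, Cdkn1a, Col1a1, Col1a2, Col5a2, Cox6a2, H2-D1, Hspa1b, Mcm5, Mdm2 and Shmt2 lost their call in it, beside those said there. So did Actg2, Atf6, Canx, Cdh19, Des, Hsp90b1, Nfil3, Perp, Rora and Thbs4. Requiring a 2-fold change in a culture left 106 genes in normal culture alone, 66 in co-culture alone, 143 in both in the same direction and 0 in opposite directions. Leaving out each library in turn gave 1490 to 2051 called genes, 846 to 1226 positive and 629 to 825 negative, 1081 to 2077 for the co-culture effect at 72 h and 2315 to 3335 at 36 h, with 309 to 470 genes moving in co-culture alone; the lowest for the effect at 72 h and for co-culture alone came without co-culture replicate 3 at 72 h. Deviations of same-numbered libraries correlated at 0.179, 0.131 and -0.107 between the cultures at 72 h. With 3 libraries per group these values cannot decide whether the numbers pair the libraries. A replicate block across the 12 libraries gave 1959 called genes, 1866 of them among the 2088. Blocks within each time and within each culture gave 1911 and 1776. Library weights gave 2208. Rescaling to TPM called 1909 genes, 47.9% of them positive against 58.4% as deposited, and median-of-ratios scaling called 1994, 50% positive. FPKM without read counts limits what can be said of weakly expressed genes.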
